A study of Mus musculus with 4 samples.

Results

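Cluster 7 is a small group of endocrine cells of the mouse stomach, taken here as every cell that the authors' cell table places in cluster 7. It held 88 of the 4449 sequenced cells, with 24 and 35 in the libraries Epcam+ 1 and Epcam+ 2 and 21 and 8 in GFP+ 1 and GFP+ 2. All libraries came from stomachs of female Rosa26iH2b-GFP mice, in which doxycycline switches on a GFP-tagged histone from the Rosa26 locus. The mice began a doxycycline diet at 4 weeks of age, stayed on it for 4 weeks, then went 6 weeks without it and were 14 weeks old when the tissue was taken, and this holds for every group. Epcam+ libraries hold viable epithelial cells sorted on Epcam after removal of Cd45+ and Cd31+ cells, and GFP+ libraries hold the GFP-positive cells within that gate. The methods state that sorted cells of more than 1 mouse were combined, and no source used here shows that replicates came from separate animals, so that p-values measure the spread between libraries, which may be technical.

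Endocrine cells of the gastric gland store peptide hormones or amines in granules and release them on signals from food, nerves or neighbouring cells. X/A-like cells make ghrelin (Ghrl), a peptide of hunger, D cells make somatostatin (Sst), which restrains acid and hormone release, G cells of the antrum make gastrin (Gast), which drives acid, and enterochromaffin-like cells make histamine through histidine decarboxylase (Hdc). Enterochromaffin cells make serotonin through tryptophan hydroxylase (Tph1). Chromogranin A (Chga) is a granule protein shared by most of them.

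Of the series, the totals ran from 35571141 unique molecular identifiers (UMIs) in GFP+ 1 to 79455225 in Epcam+ 2, and the median per cell from 31735 in Epcam+ 2 to 104840 in GFP+ 2. The median cell of cluster 7 held 14701 UMIs. In all, 8 cells carried a barcode found in another library, of which 0 were in cluster 7. Scrublet called 74 cells doublets, of which 9 were in cluster 7. Sums over cluster 7 use the 3 libraries with at least 20 such cells, and GFP+ 2 with its 8 cells is given beside them. UMIs were summed per library and given as CPM, the UMIs of a gene scaled to a common library total, and values are the mean ± SD over the 3 libraries unless another form is named.

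The cluster had been labelled as Ghrl-rich with Ghrl and Chga as markers. The summed UMIs bear this out against the clusters other than cluster 6, but not against cluster 6 and not as a property of each cell. Ghrl stood at 34503 CPM in Epcam+ 1, at 89503 in Epcam+ 2, then 79038 in GFP+ 1 and 41844 CPM in GFP+ 2. In cluster 6 Ghrl was at 47810, 42530 and 72431 CPM in the first 3 of these libraries, and so above cluster 7 in Epcam+ 1. Sst stood at 29441, 63460, 44194 and 68652 CPM in the same order, so that Sst was above Ghrl in GFP+ 2 and below it in the other 3 libraries. Chga was at 6659, 4758, 10074 and 2432 CPM, against 41470, 41310 and 38677 CPM in cluster 6 of the first 3 libraries, the other endocrine cluster of the series. Outside clusters 6 and 7, among clusters with values in 2 or more libraries, the mean level ran from 17.5 CPM in cluster 8 to 56.4 CPM in cluster 5 for Ghrl, from 3.54 CPM in cluster 4 to 14.9 CPM in cluster 0 for Sst, and from 5.62 CPM in cluster 4 to 28.3 CPM in cluster 3 for Chga.

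**Figure D1:**
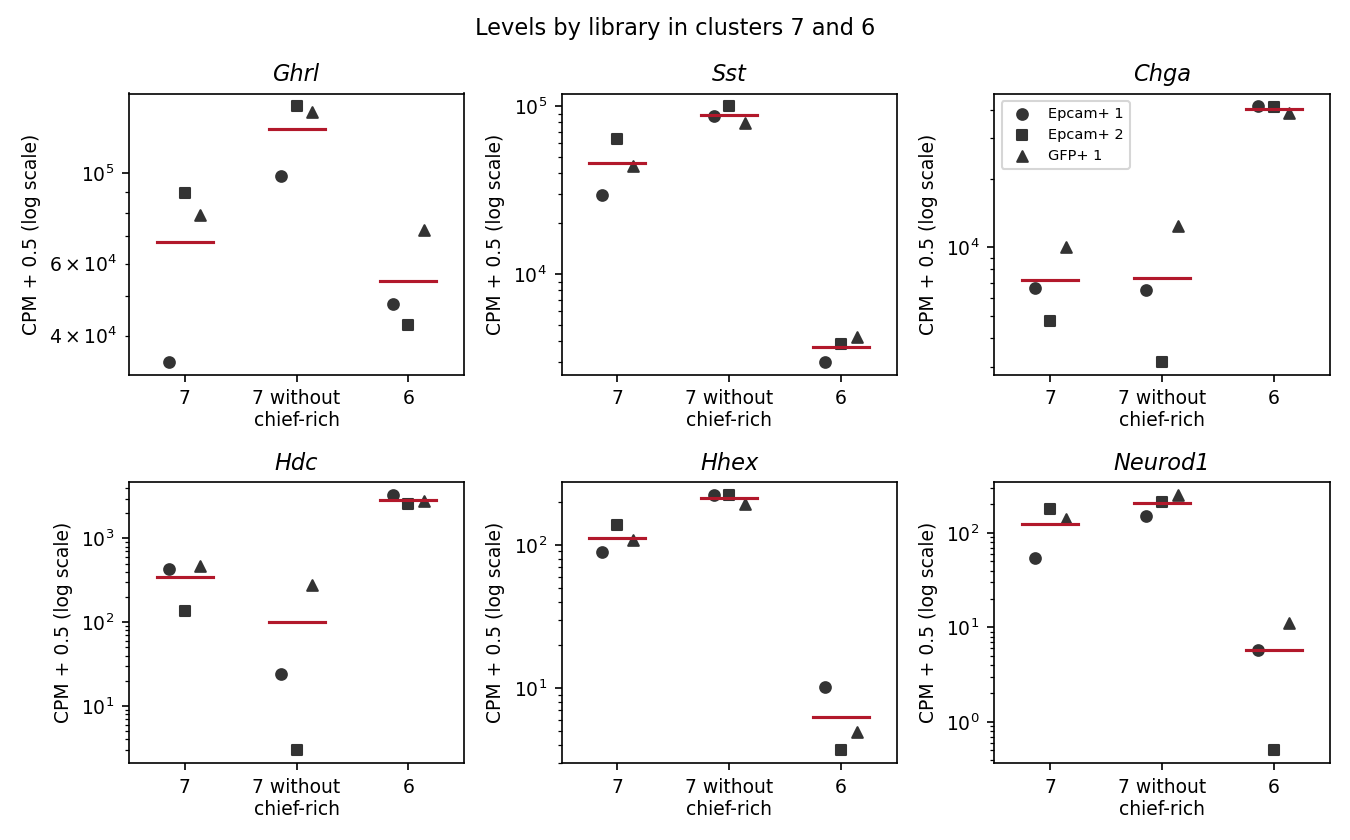
Level of 6 genes by library in cluster 7, in cluster 7 without the 14 cells rich in chief cell transcripts, and in cluster 6, as CPM + 0.5 on a log scale. Points are the libraries Epcam+ 1, Epcam+ 2 and GFP+ 1 and red lines their means. Sst, Hhex and Neurod1 lay higher and Chga and Hdc lower in cluster 7 than in cluster 6 in each library, while the Ghrl values of the clusters overlapped.

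The genes that lead most cells of the cluster are Ghrl (chr6:113716119-113719880, minus strand, protein-coding) and Sst (chr16:23889573-23890958, minus strand, protein-coding), by the GENCODE annotation of GRCm38, the assembly named mm10 in the files. The 250 bases before their transcription starts are shown because cells of the cluster divided by which of these genes they expressed. The sequences are those of RefSeq on GRCm38.p6, written 5′ to 3′ on the strand of the gene, and for Ghrl, which has 4 starts in that table, the most upstream was taken. Capitals mark the palindromic cAMP response element TGACGTCA and the E-box CANNTG, both of which read the same on either strand, and no match overlapped another.
Ghrl, chr6:113719912-113720161: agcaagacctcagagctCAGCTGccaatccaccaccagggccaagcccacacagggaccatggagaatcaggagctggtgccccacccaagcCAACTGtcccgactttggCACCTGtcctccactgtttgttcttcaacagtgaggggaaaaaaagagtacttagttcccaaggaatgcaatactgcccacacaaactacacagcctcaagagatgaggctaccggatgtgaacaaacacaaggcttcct
Sst, chr16:23890845-23891094: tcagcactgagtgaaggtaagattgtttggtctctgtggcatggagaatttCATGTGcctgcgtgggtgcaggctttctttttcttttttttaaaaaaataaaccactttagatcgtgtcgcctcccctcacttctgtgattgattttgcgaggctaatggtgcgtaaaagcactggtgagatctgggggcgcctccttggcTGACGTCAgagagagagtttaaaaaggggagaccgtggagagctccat
The Sst region holds TGACGTCA from 48 to 41 bases before the start, a match found in 1.55% of the 32851 regions of this length in the table, and the Ghrl region does not hold it. E-boxes, the sites read by basic helix-loop-helix factors such as Neurod1, occur at 3 places in the Ghrl region and at 1 in the Sst region, and in 66.2% of all regions. By the GENCODE coordinates given above, the Sst gene begins upstream of this RefSeq start and within the region shown. The TGACGTCA then lies inside the gene as GENCODE places it. A match is a run of letters and was not tested for binding.

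Cell by cell, Sst and Ghrl mostly stood apart. Counting a hormone gene as leading a cell when it had the most UMIs of the 16 measured hormone genes and at least 1% of the cell's UMIs, Sst led 30 cells, Ghrl 15, Gast 4, Gcg (glucagon) 1 and Pyy (peptide YY) 1. A further 25 cells had no hormone gene at 1%, and 12 more had none and took at least 10% of their UMIs from chief cell genes. The cuts at 1% and 10% were set after seeing the values. In the leading hormone, 6 cells lay between 0.5% and 2%, the lowest inside the cut at 1.11% and the highest outside at 0.914%. In Sst-led cells Sst took a median of 25.95% of the UMIs (2.33% to 42.4%), and in Ghrl-led cells Ghrl took a median of 35.7% (1.11% to 66.3%). By contrast, 41 of the 88 cells had fewer than 3 Ghrl UMIs.

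**Figure D2:**
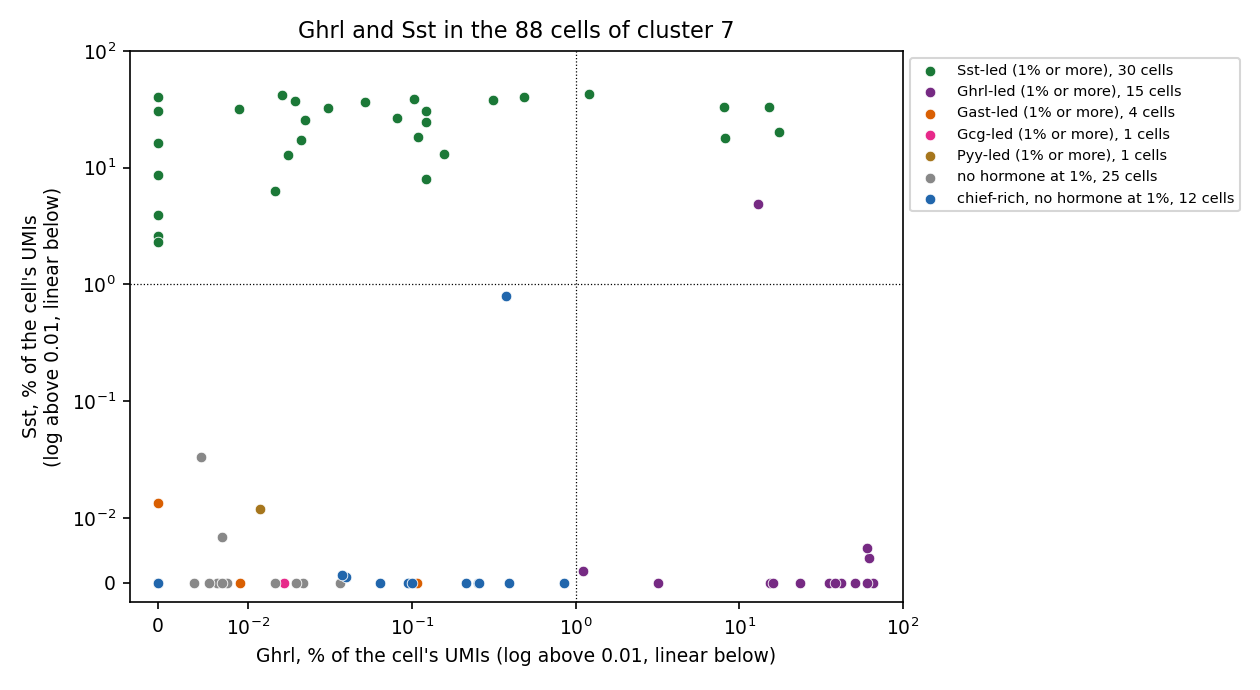
Ghrl against Sst in each cell of cluster 7, as percent of the cell's UMIs on axes that are logarithmic above 0.01 and linear below, with dotted lines at 1%. Most of the 30 Sst-led cells (green) lie left of the line for Ghrl and most of the 15 Ghrl-led cells (purple) below the line for Sst, with 6 cells past both.

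Sst was at 1% or more in 31 of 88 cells (35.2%, 95% Wilson interval 26.1 to 45.6) and Ghrl in 20 (22.7%, 15.2 to 32.5). By library, Sst reached 1% in 7 of the 24 cells of Epcam+ 1, 16 of the 35 of Epcam+ 2, 6 of the 21 of GFP+ 1 and 2 of the 8 of GFP+ 2, and Ghrl in 5, 10, 4 and 1 of the same cells. In each library the cells with Sst at 1% thus outnumbered those with Ghrl at 1%. In GFP+ 2 the 1 cell with Ghrl was also 1 of the 2 with Sst, and 0 cells were led by Ghrl. These intervals, like every other counting interval here, cover counting error only. Elsewhere in the series, Sst reached 1% in 5 of the 224 cells of cluster 6 and in 0 of the 4137 remaining cells. The upper limit of the expected count behind that 0 is 3. Ghrl reached 1% in 123 of the 224 cells of cluster 6.

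A few cells set the Ghrl sum. In GFP+ 1, 2 cells held 94.0% of the Ghrl UMIs, and the highest pair of cells held 65.2% in Epcam+ 1 and 62.0% in Epcam+ 2. For Sst the highest pair held 48.8%, 31.3% and 53.1%. A median cell of the cluster drew 0.0266% of its UMIs from Ghrl and 0% from Sst.

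Both hormones passed 1% in 6 cells, 0 of which were called doublets and 0 of which were rich in chief cell transcripts. Among them was a GFP+ 2 cell with 17.6% Ghrl and 20.1% Sst, and the Epcam+ 2 cells included one with 15.3% Ghrl and 32.7% Sst and another with 13.0% Ghrl and 4.84% Sst. Whether these were single cells of mixed expression was not tested.

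**Figure D3:**
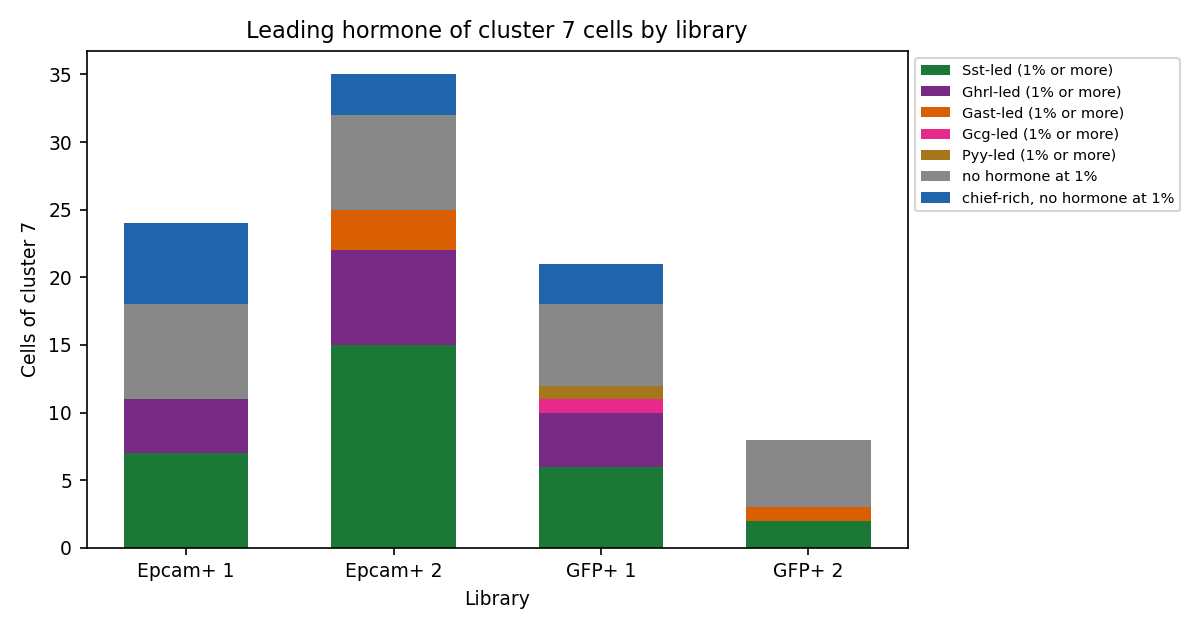
Number of cluster 7 cells in each library by leading hormone gene at 1% or more of the cell's UMIs. Sst-led cells number 7, 15, 6 and 2 and Ghrl-led cells 4, 7, 4 and 0 in Epcam+ 1, Epcam+ 2, GFP+ 1 and GFP+ 2.

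The other hormone genes rested on few cells. Gast was at 0 CPM in Epcam+ 1 but 26925 CPM in Epcam+ 2, and at 13.6 CPM in GFP+ 1 but 37153 CPM in GFP+ 2, and led 3 cells of Epcam+ 2 and 1 of GFP+ 2. In those 4 cells Gast took 10.7% to 47.7% of the UMIs. Summed over them, Gpx3, a glutathione peroxidase, was at 871 CPM against 22.9 in Sst-led and 5.07 in Ghrl-led cells, Etv1, a transcription factor, at 460 CPM, and Nkx6-3, a homeobox factor of the antrum, at 362 CPM against 17.8 and 15.2. Gcg, Ppy (pancreatic polypeptide) and Cck (cholecystokinin) each had 88.8% or more of their UMIs in 1 cell of GFP+ 1, the same cell for Gcg and Cck and another for Ppy. Of the 22 hormone genes listed, 16 were in the table, 9 reached 20 CPM and 4 were at 0 in each of the 3 libraries. Of the 9, Sst and Sct (secretin) were at least 4-fold over cluster 6 in each library and 0 were under.

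The profile of the cluster was set against other clusters within each library, as a description with no test, since the clusters were made from these genes. A cluster entered only in libraries where it had enough cells. Cluster 9 was thus left out, and clusters 3, 4 and 8 had values in only 2 libraries. At least 4-fold over each cluster so compared stood 14 of the 1982 genes at 50 CPM or more (0.706%). Among them was the hormone gene Sst, whose smallest margin over any cluster and library was 3.29 on the log2 scale. Neurod1, a basic helix-loop-helix factor of endocrine cells, was at 53.5, 180 and 141 CPM in Epcam+ 1, Epcam+ 2 and GFP+ 1 and 481 in GFP+ 2, against 5.25, 0 and 10.7 CPM in cluster 6, with no overlap and a smallest margin of 3.23. Further members were the transcription factor genes Hhex (111 CPM ± 25.1) and Egr3 (108 ± 48.2), the granule genes Pcsk1n, Scg2, Scgn and Pcsk2, and Cltrn, Igfbp7, Tubb3, Vwa5b2 and Sphkap. Without the cells rich in chief cell transcripts the count was 36, which included all 14.

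Against cluster 6 alone, 26 genes were at least 4-fold higher (1.31% of 1982) and 63 at least 4-fold lower (2.0% of 3143 genes at 50 CPM or more in cluster 6) in every library. With TMM scaling over all sums the split turned to 40 higher and 16 lower, and with the UMIs of Clps, Pla2g1b and Pgc left out of the totals to 57 and 24, so that the balance between directions rested on the scaling. Among the 10 genes with the largest margins over cluster 6, Pla2g1b, Pgc and Pdia2 were high through the cells rich in chief transcripts. Pla2g1b, a secreted phospholipase, fell from 84101 to 1460 CPM when those cells were left out, and Pdia2, a protein disulfide isomerase, from 508 to 12.7 CPM. The others included Sst, Neurod1, Cltrn, Igfbp7, Cd177 and Cdkn1c, the last an inhibitor of the cell cycle at 268 CPM in cluster 7 and 97.3 CPM without those cells, against 22.0 CPM in cluster 6. The 10 with the largest margins under cluster 6 were Serpina7, Ahsg, Fgf13, Dlk1, Agt, Rspo4, Gc, Fst, Pappa2 and Shisal1. Gc, the vitamin D binding protein, was at 238 against 2404 CPM, and Ahsg, the plasma protein fetuin A, at 34.7 against 724 CPM.

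By role, genes were counted as over cluster 6 where they were at least 4-fold higher in each library and at 20 CPM or more in cluster 7, as 43 of all 4784 such genes were (0.899%), and as under it where they were at least 4-fold lower and at 20 CPM or more in either cluster, as 92 of 6546 were (1.41%). The lists were chosen with earlier results of these data known. Over the 4784 genes the median difference of cluster 7 from cluster 6 was -0.62 on the log2 scale. Of the 16 genes for granules and prohormone processing, 4 were over cluster 6, 0 under, and the median difference was -0.81. The 4 were Pcsk1n, which encodes an inhibitor of prohormone convertase 1, Pcsk2, the gene of prohormone convertase 2, Scg2 (secretogranin 2) and Scgn (secretagogin, a calcium sensor of granule release). Pcsk2 was at 272, 1064 and 755 CPM against 57.0, 51.5 and 147 CPM in cluster 6, with no overlap. Chga differed by -2.57 ± 0.59 on the log2 scale, Pcsk1 by -1.90 ± 0.83 and Mboat4, the acyltransferase that activates ghrelin, by -1.82 ± 0.67, each short of the fold in at least 1 library.

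Of the 7 amine genes, 5 reached 20 CPM, 0 were over and 2 under cluster 6. The latter were Hdc, the enzyme of histamine synthesis, and Slc18a2, the vesicle transporter of amines. Hdc was at 432, 135 and 473 CPM and 9.07 CPM in GFP+ 2, against 3325, 2574 and 2766 CPM in cluster 6, with no overlap. Tph1 was at 221 CPM in Epcam+ 1 and 687 CPM in GFP+ 1, and at 0 in the other libraries. It passed 0.1% of the UMIs in 3 cells, all in cluster 7, with 322, 173 and 130 Tph1 UMIs beside 931, 848 and 2064 Chga UMIs. Thus 3 cells of the series carried the serotonin enzyme at that level.

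Of the 28 measured genes of endocrine transcription factors, 18 reached 20 CPM, 5 were over cluster 6 and 0 under, and the median difference was 1.17 on the log2 scale. The 5 included Neurod1, Hhex, Isl1 and Nkx2-2, genes of factors that specify or maintain endocrine cells in gut and pancreas. Isl1 was at 198, 441 and 147 CPM against 34.5, 21.0 and 32.1, and Nkx2-2 at 25.5, 59.9 and 30.2 against 2.25, 1.27 and 3.78 CPM. Insm1, an early endocrine factor, was at 274 ± 46.6 against 329 CPM.

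Of the 14 exocytosis genes at 20 CPM, 1 was over (Syt13, a synaptotagmin) and 1 under (Rab3c, a small GTPase of secretory vesicles) cluster 6, with a median difference of -1.31. Rab3c was at 149, 159 and 207 against 987, 1232 and 1022 CPM. Of the 8 ion channel genes at that level, 0 were over and 0 under, with a median of -0.39. Cacna1a, a calcium channel subunit, was highest with 92.7 CPM ± 35.1, and Kcnk3, a potassium channel, stood at 45.5 ± 5.86 against 232 CPM. Of the 4 receptor genes at that level 0 were over, and of the 7 at 20 CPM in either cluster 1 was under, Cckbr, the gastrin receptor, at 13.1 CPM against 119. Ffar2, a receptor of short-chain fatty acids, was highest at 42.2 CPM ± 19.9, followed by Cckar, a cholecystokinin receptor, at 30.5 ± 5.13, of which 2.14 CPM was left without the cells rich in chief transcripts.

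Transcripts of chief cells, the enzyme-making cells of the gland base, took 31.0% ± 12.7 of the summed UMIs of the cluster (12 genes, 45.5% in Epcam+ 1, 21.4% in Epcam+ 2 and 26.2% in GFP+ 1), against 3.96% ± 0.716 in cluster 6 and 84.7% ± 0.314 in cluster 1, a cluster of chief cells. They were concentrated in 14 cells. In these cells chief genes took 13.0% to 74.4% of the UMIs (median 60.0%), and in the other 74 cells at most 4.18% (median 0.468%), so that no cell lay between 4.18% and 13.0%. Of the 14, 7 and 4 were in Epcam+ 1 and Epcam+ 2 and 3 and 0 in GFP+ 1 and GFP+ 2. They held a median of 72150 UMIs (13422 to 159882) against 13794 (3506 to 54470) in the others, and 48.8% of all UMIs of the cluster. All 9 doublets called in the cluster were among them. Without them the chief share of the sums was 0.525% ± 0.182.

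**Figure D4:**
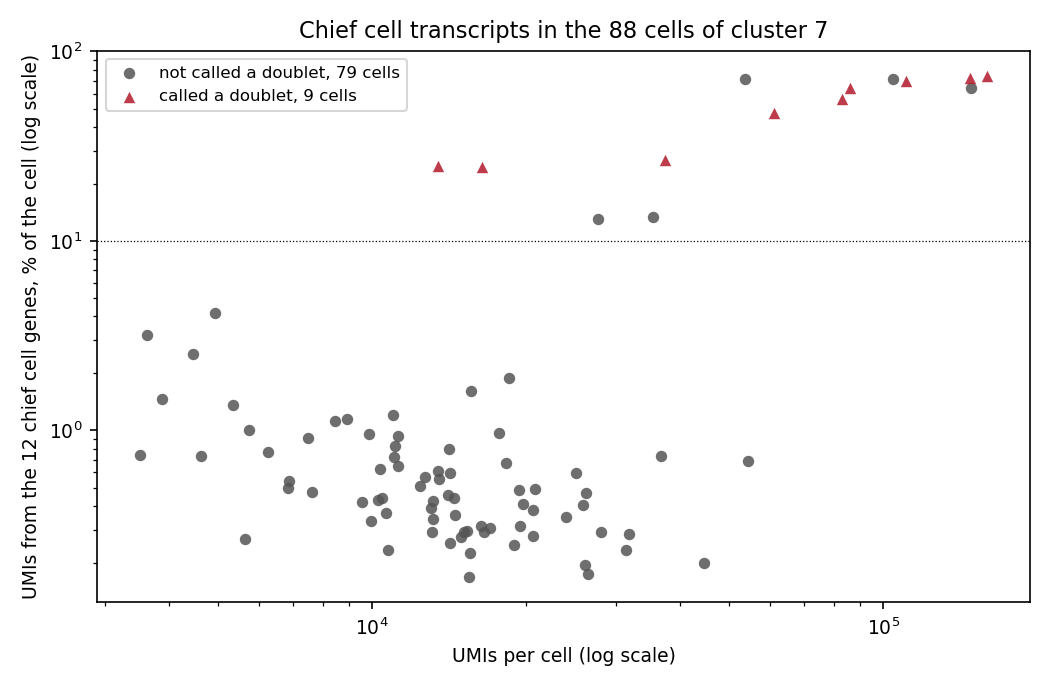
UMIs per cell against the share from the 12 chief cell genes in the 88 cells of cluster 7, both on log scales, with a dotted line at 10%. The 14 cells above the line include all 9 cells called doublets (triangles), and the 74 cells below it reach at most 4.18%.

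The 14 cells also carried endocrine transcripts. Of them, 13 had at least 3 Chga UMIs, 13 at least 3 of Insm1 and 12 at least 3 of Hdc, against 42, 2 and 1 of the 896 cells of cluster 1. Their median was 7142 CPM for Chga, 588 CPM for Hdc and 1564 CPM for Ghrl, and at 3 Sst UMIs or more there were 2 of the 14. In the other 74 cells the medians were 3530 CPM for Chga, 0 for Hdc and 184 for Ghrl. The 14 cells held 88.2% of the Hdc UMIs of the cluster as a mean over libraries (67.4% to 98.9%) and 53.3% of those of Chga (31.7% to 68.6%). Hdc in the sums fell from 347 CPM ± 185 to 101 ± 153 without them, Ghrl was then at 128192 ± 25955 CPM, Sst at 88574 ± 10210 and Chga at 7342 ± 4657.

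The ratio of Clps (colipase) to Pla2g1b was 1.75 ± 0.516 in the 14 cells, 1.67 ± 0.133 in the rest of the cluster, 1.41 ± 0.0233 in cluster 1 and 1.66 ± 0.133 in cluster 5, while cluster 6 had 11.2 ± 1.61. That of Pgc (pepsinogen C) to Clps was 0.604 ± 0.0353, 0.408 ± 0.0838, 0.532 ± 0.0808, 0.761 ± 0.131 and 0.147 ± 0.0464 in the same order. Summed chief transcripts of cluster 7 thus stood in proportions nearer to those of the chief clusters than to those of cluster 6. Cluster 0, rich in neck transcripts, had 1.04 ± 0.209 for Clps to Pla2g1b and 18.4 ± 4.39 for Pgc to Clps. The sums do not describe each cell. Among the 30 Sst-led cells, 1 cell held 88.2% of the 3721 Pgc UMIs. The highest share of their 1199 Clps UMIs in any cell was 13.3%. Of the 12 chief genes, 10 reached 20 CPM, of which 4 were over and 1 (Pnliprp1, a lipase relative) under cluster 6.

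Mucous transcripts were scarce. The 6 neck genes took 0.135% ± 0.0730 of the summed UMIs and the 7 measured pit genes 0.143% ± 0.109, against 0.0946% ± 0.0620 and 0.0753% ± 0.0706 in cluster 6, 4.86% for neck genes in cluster 0 and 12.6% for pit genes in cluster 2. Of the neck genes 4 and of the pit genes 6 reached 20 CPM, and of both lists 0 were over and 0 under cluster 6. Muc6, the mucin of neck cells, fell from 295 to 8.65 CPM without the 14 cells, Agr2, a disulfide isomerase of mucous cells, from 444 to 40.2 and Psca, a surface antigen, from 1151 to 42.3. Gkn1 and Tff1, secreted by pit cells, did not fall but stood at 63.0 and 111 CPM with and 100 and 206 CPM without them. Mucous transcripts thus came in through cells among the same 14 for Muc6, Agr2 and Psca, and not for Gkn1 and Tff1. The 14 were not alike. Those with 13.0% to 26.8% chief UMIs had 0.712% to 2.95% neck UMIs and at most 0.0580% pit UMIs. Those with 47.1% chief UMIs or more had at most 0.345% neck UMIs and up to 0.670% pit UMIs.

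Among markers of other cells, 1 of the 8 parietal genes reached 20 CPM (Hepacam2, also an endocrine gene, 93.5 CPM), as did 3 of the 9 genes of isthmus and proliferation, led by Stmn1 (70.3), and 0 of the 8 tuft, 6 squamous and 3 measured endothelial genes. The only immune gene at that level was Kit (36.7). Acta2 and Myh11, of smooth muscle, averaged 95.6 and 65.0 CPM, the neuronal genes Uchl1 and Elavl4 59.8 and 34.6, and the haemoglobin gene Hba-a1 had 0 UMIs. All Acta2 UMIs were in 3 cells, in Epcam+ 1, GFP+ 2 and Epcam+ 2, with 111, 109 and 97, which had 0 Epcam UMIs each and 0, 1 and 0 Chga UMIs. A cell of GFP+ 2 held 242 UMIs of Cd74, 730 of Apoe and 0 of Epcam, Chga and Insm1. These 4 cells are in the cluster by its rule, with at most 1 Chga UMI each and 0 UMIs of Epcam, the marker of the gate.

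The 25 cells with no hormone at 1% and few chief transcripts differed from the hormone-led cells in what they carried. Summed over them, Sox4, a progenitor factor, was at 1248 CPM against 138 in the 30 Sst-led and 111 in the 15 Ghrl-led cells, Tubb3, a neuronal tubulin, at 595 against 35.7 and 12.7, Hes6 at 534 against 45.9 and 10.1, and Stmn1 at 412 against 17.8 and 25.3 CPM. Insm1 was at 1013 against 303 and 142 CPM. Tubb3 was seen in 15 of the 25 cells (median 13158 UMIs) and, for comparison, in 3 of the 896 cells of cluster 1 (median 125624 UMIs). Thinned to 3500 UMIs a cell, with 0 cells left out, Tubb3 was seen in 48% of the 25, in 0 of 29 Sst-led and 7.14% of 14 Ghrl-led cells with few chief transcripts, and in 0.446% of cluster 6 cells. Thinned likewise, Insm1 was seen in 68% of the 25 against 62.1% of the Sst-led and 35.7% of the Ghrl-led cells. Sox4 was seen in 64% against 27.6% and 42.9%, Hes6 in 52% against 10.3% and 7.14%, and Stmn1 in 44% against 6.90% and 28.6%. Neurod1 and Isl1 went the other way, at 20% each, against 62.1% and 71.4% for Neurod1 and 86.2% and 50% for Isl1. Hhex was seen in 0 of the 25. The 25 cells lay in every library, 7, 7, 6 and 5. They include the 4 cells without Epcam UMIs and the cells with 322 and 173 Tph1 UMIs described above, so that the sums mix cells of more than 1 kind. The groups were formed from the hormone counts of the same cells, and no test was run.

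Sst-led and Ghrl-led cells were summed per library and compared by edgeR's quasi-likelihood test with the library as a block. In it a cell counted as led by the hormone gene with most UMIs in it, with no minimum, so that cells with few hormone UMIs and cells rich in chief transcripts also entered. This gave 9, 15 and 6 Sst-led against 11, 12 and 9 Ghrl-led cells in Epcam+ 1, Epcam+ 2 and GFP+ 1. Of these, 7, 15 and 6 Sst-led but only 4, 7 and 4 Ghrl-led cells had the leading hormone at 1% or more. Most of the Ghrl-led cells tested thus fell short of 1%. The hormone genes chose the classes and were left out of the test. Of 3811 genes, 41 were higher in Sst-led cells (1.08%) and 30 higher in Ghrl-led cells (0.787%) at a Benjamini-Hochberg adjusted p under 0.05. Without TMM, on library totals, the split was 77 and 22. With the leading hormone at 1% or more, 28 of 1770 genes passed, of which 18 were among the 71 and had the same direction.

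Of the 15 granule and prohormone processing genes tested, 4 were higher in Sst-led cells and 0 lower, and the median log2 difference of the list was 0.84 against -0.0039 over all genes tested. With the leading hormone at 1% or more, 2 of 15 were higher, Pcsk2 and Resp18, and the median was 0.071 against 0.0081. Pcsk2, whose product cleaves prohormones, was at 1115, 1979 and 2899 CPM (TMM-normalised, Epcam+ 1, Epcam+ 2 and GFP+ 1) in Sst-led and 11.4, 204 and 49.1 CPM in Ghrl-led cells, a log2 difference of 4.996 ± 0.55 (SE, edgeR, adjusted p = 0.0020). The other 3 were Resp18, a granule protein (2.11 ± 0.22, edgeR, adjusted p = 0.0020), Pcsk1n and Scg3. The antisense transcript Pcsk2os1, which overlaps Pcsk2, was also higher (4.69 ± 0.52).

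Of 16 transcription factor genes tested, 3 were higher (Hhex, Pax6 and Isl1) and 2 lower in Sst-led cells. One of the latter, Sox4, differed by -1.51 ± 0.30 (edgeR, adjusted p = 0.036), but by -0.37 ± 0.57 with the leading hormone at 1% or more (edgeR, adjusted p = 0.87). Hhex, a homeobox factor needed by somatostatin cells of the pancreas, was at 368, 362 and 568 CPM in Sst-led and 0, 40.9 and 0 CPM in Ghrl-led cells (5.23 ± 0.74, edgeR, adjusted p = 0.0058), with no overlap. Pax6 was at 48.0, 172 and 192 against 0, 3.41 and 19.6 CPM (4.06 ± 0.49, edgeR, adjusted p = 0.0026). With the leading hormone at 1% or more, Hhex differed by 4.05 ± 0.83, Pax6 by 2.74 ± 0.61 and Isl1 by 1.19 ± 0.47, and each missed the threshold (edgeR, adjusted p = 0.053, 0.072 and 0.37). The other genes with the largest rises in Sst-led cells were Calcrl, a receptor of the calcitonin family, Cltrn (collectrin), Car8, Igfbp7, Rmst and Tceal3.

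**Figure D5:**
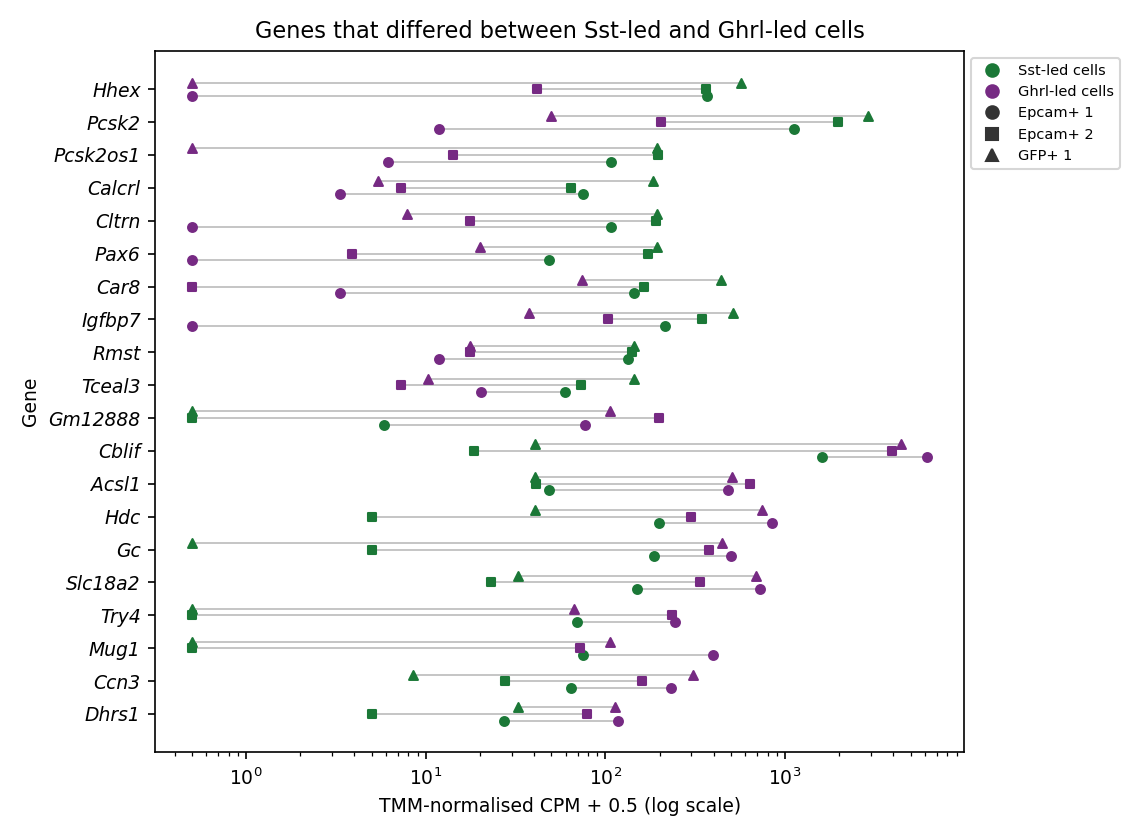
TMM-normalised CPM + 0.5 on a log scale of the 10 genes that most exceeded Ghrl-led cells (purple) in Sst-led cells (green) and the 10 that most fell short of them, with a line joining both values of a library (circle Epcam+ 1, square Epcam+ 2, triangle GFP+ 1). In each of the 3 libraries green lies right of purple for the upper 10 genes and left of it for the lower 10. Cells are classed by leading hormone with no minimum.

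Higher in Ghrl-led cells was Acsl1, an acyl-CoA synthetase that activates long-chain fatty acids, at 481, 640 and 508 CPM against 48.0, 40.8 and 40.0 in Sst-led cells (-3.64 ± 0.27, edgeR, adjusted p = 0.00032). With the leading hormone at 1% or more it differed by -4.99 ± 0.35 (edgeR, adjusted p = 0.00036). Of the 3 amine genes tested, 2 were lower in Sst-led cells and 0 higher. They were Slc18a2 (-3.25 ± 0.38, edgeR, adjusted p = 0.0020) and Hdc (-3.37 ± 0.49, edgeR, adjusted p = 0.0061). Of the 15 cells with Ghrl leading at 1% or more, 13 had a Slc18a2 UMI but 2 a UMI of Hdc, 65.5% of whose 142 UMIs were in 1 cell, while the 12 cells rich in chief transcripts with no hormone at 1% held 583 Hdc UMIs. Without the cells rich in chief transcripts Slc18a2 passed (-2.55) and Hdc was too low to be tested. Of the 10 chief genes tested, 3 were lower in Sst-led cells (Cblif, Try4 and Tmed6) and 0 higher. Chief transcripts themselves took 50.3%, 36.7% and 36.6% of the UMIs of the Ghrl-led cells of Epcam+ 1, Epcam+ 2 and GFP+ 1 and 46.9%, 2.54% and 0.888% of those of the Sst-led cells, so that they moved with this comparison. Without the cells rich in them 73 genes passed, but of another set of tested genes, since the filter on low counts was applied anew. Of the 20 named genes 12 could still be tested and all 12 passed in the same direction. Neither direction was met by any of the 9 ion channel, 3 receptor, 4 neck, 5 pit and 12 immediate-early genes tested, while of 13 exocytosis genes 1 (Rab3c) was lower and of 10 heat shock genes 1 (Hspa1b) higher.

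The share of cluster 7 among the cells of a library addressed whether label-retaining cells were found among these endocrine cells. In Epcam+ 1 it was 1.46% (95% Wilson interval 0.984 to 2.17) and in Epcam+ 2 1.85% (1.33 to 2.56), while GFP+ 1 had 4.50% (2.96 to 6.78) and GFP+ 2 1.80% (0.916 to 3.51), so that GFP+ 2 lay within the range of the Epcam+ libraries. The mean was 3.15% ± 1.91 in GFP+ and 1.65% ± 0.272 in Epcam+ libraries, a log2 difference of 0.93 ± 0.45 that missed the threshold (edgeR, adjusted p = 0.059 over 10 clusters, exact permutation p = 0.667, two-sided, where the smallest possible is 0.333). Without GFP+ 1 the difference was 0.11. Among cells outside clusters 1 and 5, both made of chief cells, it was 1.78 ± 0.31 (edgeR, adjusted p = 8.3e-05), and among the endocrine cells of clusters 6 and 7 it was -0.086 ± 0.10, with cluster 7 making up 27.9% and 29.4% of them in Epcam+ 1 and Epcam+ 2 and 28.8% and 23.5% in GFP+ 1 and GFP+ 2.

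Within cluster 7, GFP+ and Epcam+ cells were compared over Epcam+ 1, Epcam+ 2 and GFP+ 1, with 1 GFP+ library and 1 residual degree of freedom. The spread between libraries thus came from the Epcam+ pair alone, and the calls describe the library GFP+ 1. With all 4 libraries 1 gene passed, and from that fit without Epcam+ 1 and without Epcam+ 2 there passed 0 and 1 (edgeR, 90 and 105 at an unadjusted p under 0.05). Of 7333 genes 24 passed (0.327%), 14 higher and 10 lower in GFP+ 1 (21 and 25 on library totals, without TMM), and 11 of the 24 had over 50% of their UMIs in a single cell. Higher was Gcg at 6106 CPM against 0 in both Epcam+ libraries, of which 99.4% came from 1 cell, and Ppy, which came wholly from 1. Less concentrated was Ddc, the decarboxylase of amine synthesis, at 405 CPM in GFP+ 1 against 130 and 142 CPM (1.57 ± 0.29, edgeR, adjusted p = 0.039), seen in 55 cells with at most 16.8% of its UMIs in any. With all 4 libraries Ddc differed by 1.03 (edgeR, adjusted p = 1) and without GFP+ 1 by -0.12. Also higher were Pyy, 64.1% of it in 1 cell, and Rian, an imprinted non-coding RNA. Lower were the smooth muscle genes Acta2 and Tagln, whose UMIs in these libraries came from 2 cells, and Tpm2, and also Chia1, the acidic chitinase of chief cells, at 93.3 against 10180 and 1137 CPM with 71.5% of its UMIs in 1 cell.

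Some mucous genes were lower in GFP+ 1 as well. Psca was at 89.0 CPM in GFP+ 1 against 1835 and 1717 CPM (-4.32 ± 0.38, edgeR, adjusted p = 9.9e-05), Tff2, the trefoil factor of neck cells, at 75.8 against 1178 and 406, and Tff1 at 32.1 against 194 and 130. Zfp36l1, which promotes mRNA decay, was at 11.7 against 120 and 131 CPM. Psca was not lower without the cells rich in chief transcripts (1.16, edgeR, adjusted p = 0.67), while Tff1 was (-2.81 ± 0.45, edgeR, adjusted p = 0.0065). Of the lists, 4 of 10 hormone genes, 1 of 6 amine and 1 of 16 granule genes passed as higher, 2 of 11 chief, 1 of 5 neck, 2 of 6 pit and 1 of 4 fibroblast and muscle genes as lower. Of 21 transcription factor, 16 exocytosis, 13 immediate-early, 10 heat shock and 8 Atf4 target genes tested, 0 passed. Without the cells rich in chief transcripts 45 of 6137 passed, 31 higher and 14 lower, among them 3 of 6 amine genes (Hdc, Ddc and Slc18a2) and 3 of 16 granule genes (Vgf, Chga and Chgb), all higher. Hdc was then at 303 CPM in GFP+ 1 against 23.2 and 2.74 CPM (a log2 difference of 4.69 ± 0.50), but 1 cell of GFP+ 1 held 84.5% of all Hdc UMIs of these cells. Among the same 74 cells, the highest cell held 48.2% of the Slc18a2, 36.2% of the Chgb and 26.7% of the Chga UMIs. For Chga it was a GFP+ 1 cell with 2064 Chga and 130 Tph1 UMIs. Another cell of GFP+ 1 held 931 Chga and 322 Tph1 UMIs.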

How the data were processed

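Droplet single-cell RNA-seq of sorted stomach epithelial cells was analysed. The authors aligned reads to mm10 with Cell Ranger 3.0.2, removed cells by gene number, mitochondrial share and Ptprc or Pecam1 counts, and clustered them with Seurat. The deposited values are raw UMI counts of 17712 genes in 4449 cells, with a table that gives each cell its cluster and library.

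UMIs were summed per library and cluster, or per library and class. Libraries were compared with edgeR 4.0.16 in R 4.3.3 (TMM, filterByExpr, quasi-likelihood test, two-sided, Benjamini-Hochberg threshold 0.05), and DESeq2 1.42.0 was an alternative. The SE beside a log2 difference was derived from the edgeR test, as the size of the difference divided by the square root of its F statistic. Ratios between clusters had 0.5 CPM added and no test. Scrublet (scanpy 1.11.5) called doublets in each library separately, which were kept except in alternatives. Shares have 95% Wilson intervals (scipy 1.17.1). The limit beside a count of 0 is 3 counts. The tests were also run on simulated counts drawn with a common dispersion. Such counts do not mimic genes with most of their UMIs in a single cell.

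The members and gene lists were chosen with earlier results of these data known. Named are listed genes at 20 CPM or more, the 20 genes with the largest margin over every cluster, the 10 with the largest margin over and under cluster 6, and in each tested comparison the 10 largest rises and falls at 50 CPM or more with the same direction in every library pair, together with the most abundant genes of the marker lists. Of the listed genes 27 were not among those measured. Gpx3, Sox4, Hes6, Apoe, Resp18 and the genes of the 25 cells without a hormone were chosen after their values were seen, as were the alternatives that leave out the cells rich in chief transcripts, set the 1% minimum or include cluster 9. Some genes that met the rule are not reported here.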

Additional observations from a re-analysis of the deposited data

Results flagged for a closer look

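In the cluster 7 cells of GFP+ 2, a library the sums leave out for its 8 such cells, 4 genes had at least 100 UMIs where the cluster 7 cells of both Epcam+ libraries together had at most 3. They were Cd74 with 242 UMIs, H2-Eb1 with 118, H2-Ab1 with 104 and H2-Aa with 102, the invariant chain and genes of the class II antigen-presenting complex. All of these UMIs were in 1 cell of 12712 UMIs. The same cell held 78 C1qa UMIs and 730 Apoe UMIs. In GFP+ 1 these 4 genes had at most 1 UMI.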

How the results depend on the processing

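The main limits are the small number of cells per library, the 14 cells rich in chief transcripts and the single GFP+ library in the within-cluster test. Genes over every other cluster compared numbered 14, and 26 with Clps, Pla2g1b and Pgc left out of the totals. They numbered 34 with the mean over cells, 24 without called doublets and 36 without the cells rich in chief transcripts. At 2-fold they numbered 22, and with cluster 9 of the Epcam+ libraries included, 13. Genes over cluster 6 numbered 26, and 40 with TMM, 57 with the 3 genes left out, 58 with the mean over cells, 54 without the cells rich in chief transcripts and 55 at 2-fold, and 28 to 42 leaving out each library. Genes under cluster 6 numbered 63, and 16 with TMM, 24 with the 3 genes left out, 390 at 2-fold and 74 to 98 leaving out each library. The chief share of 31.0% became 16.3% without called doublets, 0.525% without the cells rich in chief transcripts and 0.578% as the median over cells. Genes called between GFP+ and Epcam+ numbered 24, and 46 without TMM, 4 with DESeq2, 103 without the filter, 8 without doublets, 45 without the cells rich in chief transcripts, 1 with all 4 libraries, and 0 to 51 leaving out each library of the fit with all 4. The 0 was without Epcam+ 1, where 90 genes had an unadjusted p under 0.05 by edgeR. Of 150 values of the 13 genes named there, 75 kept their direction and side of the threshold. Leaving out each library, log2 differences ran from -7.67 to 2.78 for Pyy, -2.03 to 1.91 for Rian, -0.12 to 1.57 for Ddc, -10.00 to 0.74 for Tagln, -9.71 to 2.16 for Acta2 and -8.87 to 1.66 for Tpm2, with the first 3 lowest and the others highest without GFP+ 1. Other changes of direction were those of Acta2 (1.10, 1.27 and 0.95) and Tpm2 (0.32, 0.19 and 0.87) with all 4 libraries, without Epcam+ 1 and without Epcam+ 2, Chia1 without doublets (0.23) and without the cells rich in chief transcripts (0.16), and Psca without the latter (1.16). Genes called between Sst-led and Ghrl-led cells numbered 71, and 30 with DESeq2, 270 without the filter, 44 without doublets, 42 without the block, 258 with the leading hormone at least 10 times the other, 28 with it at 1% or more, and 39 to 117 leaving out each library, the lowest without GFP+ 1. Of 226 values of its 20 named genes, 198 kept direction and side of the threshold, 28 kept direction only and 0 changed direction. The difference in share of 0.93 was past the threshold among cells outside clusters 1 and 5 (1.78), without doublets (1.02), with TMM on cell counts (0.91) and without the cells rich in chief transcripts (1.07), was -0.086 among endocrine cells, and ran from 0.11 to 1.43 leaving out each library, past the threshold without GFP+ 2. The cause of these changes was not tested. With the replicate number as a block the share differed by 0.88 and 9 genes were called between GFP+ and Epcam+, and the deviations of same-numbered libraries correlated at 0.16, which with 2 pairs does not show whether the numbers pair the libraries.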

Other observations

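Of the genes of 3 stress lists, 0 met the 4-fold rule against cluster 6 in either direction when all cells of cluster 7 were summed. The 13 immediate-early genes took 1.15% of the summed UMIs in cluster 7 and 0.791% in cluster 6, and of the 12 at 20 CPM or more 0 were 4-fold over or under it. Jun was at 2149 CPM ± 569 against 1192, and Atf3 at 863 ± 423 against 403 CPM. Without the 14 cells rich in chief transcripts, Jun was at 3129 ± 494 and Atf3 at 1260 ± 281 CPM in cluster 7. The immediate-early share was then 1.86%, 1.74% and 1.56% in Epcam+ 1, Epcam+ 2 and GFP+ 1. The 11 heat shock genes took 0.592% and 0.662%, with Hspa1a at 538 ± 209 against 235 CPM and Hspa8 at 1187 ± 168 against 1758 CPM. Without the same 14 cells their share in cluster 7 was 0.923%, 0.779% and 0.817% in the same library order. The 12 Atf4 target genes, of which 7 reached 20 CPM, took 0.106% and 0.129%. Atf4 itself was at 194 CPM ± 37.5 against 164 CPM, and Nupr1, a stress-induced chromatin protein, at 482 ± 321 against 835 CPM. Without the 14 cells rich in chief transcripts Nupr1 was at 7.95, 19.6 and 95.1 CPM in Epcam+ 1, Epcam+ 2 and GFP+ 1 (mean 40.9). In cluster 6 it was at 817, 753 and 936 CPM in the same order.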
